A study of Mus musculus with 56 samples.

Results

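Liver RNA of hyperthyroid WT mice was compared directly with liver RNA of hypothyroid L-NCOR1ΔID mice, to see which transcripts differ between livers that had received hormone and livers in which the corepressor can no longer bind the thyroid hormone receptor. These 8 libraries, 4 per group, are 8 of the 12 RNA libraries and of the 56 samples in the series, and they were chosen by their labels. The 4 hypothyroid WT libraries took no part in the test and are given beside it as levels. All mice were male and ate a low iodine diet with 0.15% propylthiouracil (PTU), a blocker of thyroid hormone synthesis, for 16 days. Hyperthyroid WT mice (WT T3) received intraperitoneal injections of 5 μg triiodothyronine (T3) during the last 4 to 6 days, and hypothyroid WT (WT PTU) and L-NCOR1ΔID mice received vehicle. L-NCOR1ΔID mice make, in the liver only, an NCOR1 protein without 2 of its domains that bind the thyroid hormone receptor. These mutants were kept on a mixed C57BL/6;129S background, and the strain of the WT mice behind these libraries is not given in the sources used here. The study's animal table, which covers more mice than those sequenced, lists a higher mean age for both WT groups than for the mutants. Hormone and genotype, and with them age and possibly strain, thus differ together between the groups, and their effects cannot be told apart. The WT PTU levels show from where a gene started.

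The thyroid hormone receptors TRα and TRβ sit on DNA mostly as heterodimers with a retinoid X receptor (RXR). Without hormone they recruit corepressors such as NCOR1, which carry the histone deacetylase HDAC3. Binding of T3 releases the corepressors and brings in coactivators such as the SRC proteins, CBP/p300 and Mediator. In liver the hormone is known for its control of cholesterol and bile acid metabolism, lipogenesis and mitochondrial respiration. A gene that is held down only by corepressor would be raised by the mutation without hormone, whereas one that needs coactivators bound to the liganded receptor would not.

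The deposited values are RPKM, reads scaled to transcript length and to the aligned reads of the library. Their lowest steps gave the depth relative to the first WT PTU library, which was 0.682 to 0.834 in the WT T3 libraries and 1.22 to 1.36 in the L-NCOR1ΔID libraries, so that low levels are less precise after T3. The livers showed albumin at 11610 to 25070 RPKM and the Y-linked transcripts of males. The Ncor1 values cover the whole transcript and do not test for the deleted part, and they were 14.3 to 18.4 RPKM in WT T3 and 12.1 to 13.9 RPKM in L-NCOR1ΔID. One library stood apart. WT T3 replicate 3 held the pancreatic enzyme transcripts Cpa1 at 89.5, Ctrb1 at 142 and Pnlip at 133 RPKM, whereas WT T3 replicate 2 had 1.64 to 2.40 RPKM and no L-NCOR1ΔID library had above 0.030 RPKM of any of these. Across the exocrine pancreas and fat list the summed level was 73.7 to 1290 RPKM in WT T3 and 7.27 to 9.53 RPKM in L-NCOR1ΔID. Prss1 and Amy2a5 were listed at 0 in each of the 8 libraries, and 1 of 6 members tested (Cela1) was higher in WT T3. Within L-NCOR1ΔID, replicates 3 and 4 had more of several hormone-responsive transcripts than replicates 1 and 2. Counts are therefore also given with libraries left out.

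Genes that reached 0.1 RPKM in 4 or more of these libraries numbered 14017 and were tested with limma on log2(RPKM + 0.1), and differences are given on that scale as WT T3 minus L-NCOR1ΔID, which understates the change of low genes. At an adjusted p under 0.01 and a difference above 1 in size, 774 genes (5.52%) were higher in WT T3 and 421 (3.00%) were higher in L-NCOR1ΔID. The 4 values of one group lay wholly above the 4 of the other for 768 and 419 of these, and for 38.3% of all genes tested. For 9696 genes (69.2%) the 95% interval of the difference lay between -1 and 1, so that the 2 kinds of liver differed by less than 2-fold on that scale. For genes near 0.1 RPKM the difference in RPKM itself can be larger. Without WT T3 replicate 3 the counts were 568 and 362. The median difference of all genes was 0.19, and after scaling to the median of gene ratios, which brought it to 0.01, 540 genes were higher in WT T3 and 575 in L-NCOR1ΔID. The share of calls that were higher in WT T3 was thereby 48.4% in place of 64.8%.

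**Figure D1:**
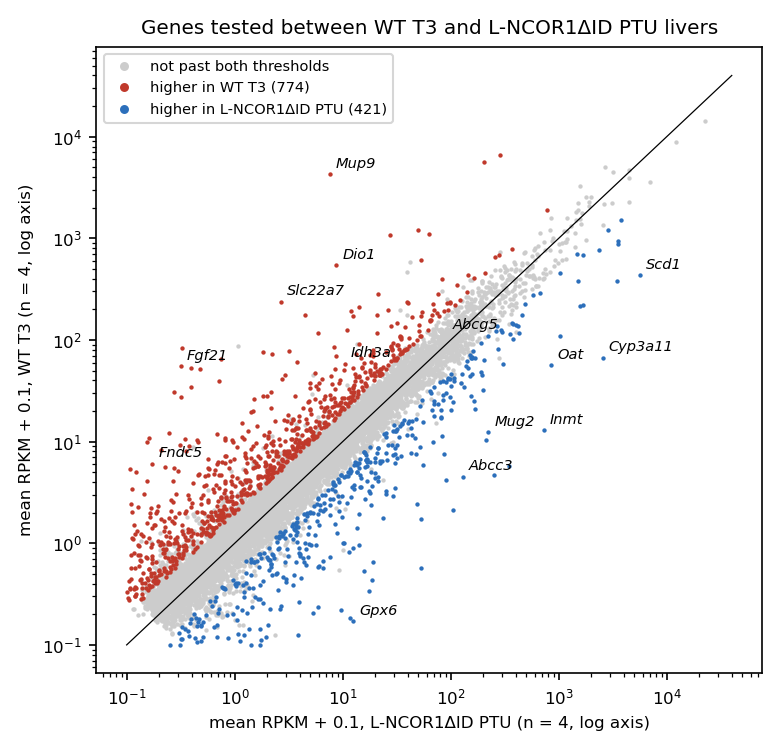
Mean RPKM + 0.1 of each gene tested in L-NCOR1ΔID PTU (x axis) and WT T3 livers (y axis), both on log axes, with n = 4 libraries per group and the line of equal levels. Red points are the 774 genes higher in WT T3, blue points the 421 higher in L-NCOR1ΔID, and grey points the others, with Dio1 and Mup9 far above and Cyp3a11, Inmt and Scd1 far below the line.

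Genes that serve as standard readouts of the hormone were mostly higher in WT T3. Of 16 genes on the list of classic T3-induced genes, 9 were higher in WT T3 and 0 in L-NCOR1ΔID, at 5.52% and 3.00% of all genes, with a median difference of 1.65. Counts of the other gene lists below are to be read against these shares as well. The 9 were Dio1, Me1, Gpd2, Hr, Bcl3, Pdp2, Proca1, Ginm1 and Cyp7a1. This list holds genes that the study names as T3-induced in these mice, so that their direction is not independent evidence. After scaling to the median of gene ratios 8 were called, and 7 to 9 with each library left out.

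Dio1, the deiodinase that converts thyroxine to T3 and clears reverse T3, had 641, 533, 459 and 544 RPKM in WT T3. The L-NCOR1ΔID libraries had 0.567, 0.591, 20.9 and 12.1 RPKM, and WT PTU 0.719, 6.64, 57.7 and 8.98 RPKM. The groups did not overlap, with a difference of 7.36 ± 1.08 (SE, limma adjusted p = 0.0011), while the mutant values lay within the range of WT PTU or just below it. Replicates 3 and 4 of L-NCOR1ΔID were more than an order of magnitude above replicates 1 and 2, and WT PTU replicate 3 was the highest of its group. Slc22a7, an organic anion transporter, was likewise higher in replicates 3 and 4 than in replicates 1 and 2 of L-NCOR1ΔID, with 166 to 308 RPKM in WT T3 and 0.503, 0.249, 3.80 and 5.76 RPKM in L-NCOR1ΔID (7.29 ± 0.828, adjusted p = 2.9e-04). Its WT PTU values were 2.27, 7.55, 33.1 and 5.89 RPKM.

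Other hormone-responsive genes showed little spread between libraries. Idh3a, the catalytic subunit of mitochondrial isocitrate dehydrogenase, had 65.2, 52.1, 55.9 and 60.4 RPKM in WT T3 and a median of 10.2 and a highest value of 11.1 RPKM in L-NCOR1ΔID, beside 6.72 to 11.7 RPKM in WT PTU. Its difference was 2.48 ± 0.0867 (adjusted p = 1.4e-06), and the mutant level was that of the hypothyroid WT liver. Slc37a3, a sugar phosphate transporter family member, had 21.2 to 21.6 RPKM in WT T3 against 4.09 to 4.37 in L-NCOR1ΔID and 4.04 to 5.39 in WT PTU (2.32 ± 0.0683, adjusted p = 8.9e-07). Stim2, a calcium sensor of the endoplasmic reticulum, had 22.6 to 25.6 RPKM in WT T3, 4.05 to 5.14 in L-NCOR1ΔID and 2.92 to 5.14 in WT PTU. Each of these genes thus had its high level in T3-treated liver alone among the 3 groups.

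Among the classic targets, Gpd2, the mitochondrial glycerol phosphate dehydrogenase of the electron shuttle, had 34.9, 34.9, 35.8 and 28.1 RPKM in WT T3 and 6.40, 2.32, 5.04 and 5.57 RPKM in L-NCOR1ΔID (2.85 ± 0.274, adjusted p = 1.3e-04). Pdp2, a phosphatase that switches pyruvate dehydrogenase on, had 24.9, 34.2, 29.2 and 23.1 RPKM in WT T3 and 7.36, 5.67, 6.83 and 7.11 RPKM in L-NCOR1ΔID (2.02 ± 0.137, adjusted p = 2.3e-05). In WT PTU Pdp2 had 2.13, 4.49, 7.27 and 3.06 RPKM, which overlapped with the mutant. Proca1, a gene next to Rab34 on chromosome 11, had 4.97 to 6.56 RPKM in WT T3 and 0.347 to 1.12 RPKM in L-NCOR1ΔID, beside 0.761 to 1.08 RPKM in WT PTU (3.25 ± 0.299, adjusted p = 9.9e-05). Rab34, a small GTPase gene, had 21.4 to 31.1 RPKM in WT T3, 1.09 to 2.10 in L-NCOR1ΔID and 1.03 to 1.96 in WT PTU. Ginm1 had 49.1 to 63.4, 14.8 to 23.9 and 15.1 to 23.6 RPKM in these groups. The mutant and hypothyroid WT values of all 4 of Pdp2, Proca1, Rab34 and Ginm1 overlapped.

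Thrsp, the lipogenic Spot 14 gene, took a middle place. It had 2360, 1336, 847 and 1844 RPKM in WT T3, 1060, 454, 1081 and 779 RPKM in L-NCOR1ΔID, and 209, 490, 352 and 237 RPKM in WT PTU. WT T3 and L-NCOR1ΔID overlapped and did not pass the test (0.90, 95% interval 0.06 to 1.74, adjusted p = 0.084). The interval also holds differences above 1, so that equal levels are not shown. Me1, the malic enzyme that supplies NADPH for lipogenesis, had 108 to 152 RPKM in WT T3 and 16.8 to 49.8 RPKM in L-NCOR1ΔID, with WT PTU at 15.01 to 34.1 RPKM (1.92 ± 0.309, adjusted p = 0.0017).

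**Figure D2:**
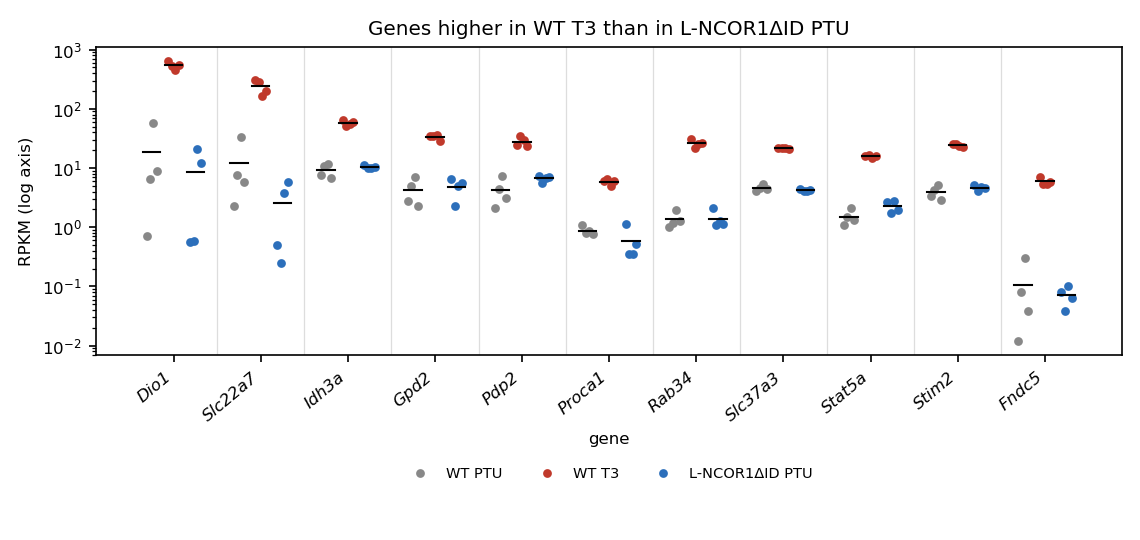
RPKM on a log axis of 11 genes higher in WT T3 than in L-NCOR1ΔID, with 1 point per library (n = 4 per group) and a black bar at the group mean. WT T3 points lie above those of both other groups for each gene shown, and Dio1 and Slc22a7 have the widest spread in the hypothyroid groups.

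Direct repeats of the half-site AGGTCA spaced by 4 bases (DR4) are the preferred element of TR with RXR. The study lists 720 TR binding sites (TRBSs) of 400 bp in regions that gained acetylation after T3, of which type 1A had high and type 1B low HDAC3 in hypothyroid WT liver. The best DR4 matches are given for a selection of sites within 100 kb of a TSS. They lie near genes that were high after T3 alone and genes that were also high in the mutant. Coordinates are mm9, letters run 5′ to 3′ on the strand given, and capitals mark the half-sites. The first 9 lines are from genes higher in WT T3, and Dio1 has 2 because a type 1A and a type 1B site near it matched equally well.
Idh3a, type 1A, chr9:54426461-54426476, minus strand: AGGTCAaccaTGGTCA
Stat5a and Stat5b, type 1A, chr11:100716643-100716658, plus strand: AGGGCAtgcaAGGGCA
Dio1, type 1A, chr4:106976387-106976402, minus strand: GGGGCAaacgAGGACA
Dio1, type 1B, chr4:106972717-106972732, plus strand: AGGGCAtctcAGGCAA
Pdp2, type 1A, chr8:107115952-107115967, minus strand: GGGACAgatgAGGTCG
Fndc5, type 1A, chr4:128819508-128819523, plus strand: GGGTCAgctcAGGACC
Proca1 and Rab34, type 1B, chr11:78024383-78024398, plus strand: AGGTCAggtcAGGTCA
Slc37a3, type 1B, chr6:39323370-39323385, minus strand: AGATCAgggcAGGTCT
Slc22a7, type 1B, chr17:46585299-46585314, minus strand: AGGTCAggtcAGGTGA
The next lines are from genes that were raised in the mutant as well.
Hmox2, type 1A, chr16:4702825-4702840, plus strand: AGGTCAggacAGGTCA
Papss2, type 1A, chr19:32696804-32696819, plus strand: AGGTTAgaagAGGCCA
Abcg5 and Abcg8, type 1B, chr17:85071804-85071819, minus strand: GGGTCGtcccAGGTCA
Gldc, neither type, chr19:30241502-30241517, minus strand: CGGTCAgctcAGGTCA
Gstt3, neither type, chr10:75267094-75267109, plus strand: AGGTCAgacaAGGGCA

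All 12 half-site bases matched at the site near Proca1 and Rab34 and at the site near Hmox2, so a full match stood near a gene of either kind. The matches near Idh3a, Slc22a7, Gldc and Gstt3 had 11 of 12 bases, and both of those at Dio1 and those at Pdp2 and Fndc5 had 9. Not printed were the best matches near Klhl33, Stim2 and Atp6v0e2, high after T3 alone, with 10 bases each. Of genes also raised in the mutant, Cebpb with 10 bases and Cyp3a59 with 8 were not printed. The printed lines therefore do not compare the strength of matches between the 2 kinds of gene. Proca1, Rab34 and Papss2 also had a site of the other type within 100 kb, with fewer matching bases. A match of at least 10 of 12 on either strand was found in 287 of 720 TRBSs (39.9%), in 33.8% of type 1A, 42.1% of type 1B and 43.8% of the other sites. In stretches of the same length 1 kb before and after each site the shares were 4.72% and 5.97%. The sites printed lay 352 bp (Pdp2) to 23280 bp (Hmox2) from the TSS, measured from the nearer edge of the site. A match describes the letters only.

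Genes near TRBSs of both types included many that were higher in WT T3. Within 100 kb of a type 1A site, 117 of 498 genes tested (23.5%) were higher in WT T3 and 13 (2.61%) in L-NCOR1ΔID, with a median difference of 0.50. Within 100 kb of a type 1B site, 87 of 456 genes (19.1%) were higher in WT T3 and 9 (1.97%) in L-NCOR1ΔID, with a median of 0.41. Genes with no listed site in this distance had 4.07% and 3.05%, and a median of 0.17. The sites lie in regions chosen for their response to T3, so that the direction is not independent of the choice. The interval of the difference lay within -1 to 1 for 49.2% of genes near type 1A and 54.2% near type 1B sites, below the 69.2% of all genes. At 50 kb the shares higher in WT T3 were 34.9% and 30.0%, and the share near type 1A and not 1B at 100 kb was 22.3%, against 16.3% near 1B and not 1A. Differences between the types were not tested.

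The genes near type 1A sites with the smallest adjusted p were Fndc5, Klhl33, Idh3a and Stim2. Fndc5, which encodes the precursor of irisin, had 5.42 to 7.14 RPKM in WT T3 and 0.038 to 0.102 RPKM in L-NCOR1ΔID (5.15 ± 0.169, adjusted p = 1.2e-06). Klhl33 had 3.82 to 7.49 RPKM in WT T3 and at most 0.015 RPKM in L-NCOR1ΔID, and near type 1B sites Atp6v0e2, a subunit of the vacuolar proton pump, had 8.98 to 12.2 against 0.544 to 0.886 RPKM. In WT PTU Fndc5, Klhl33 and Atp6v0e2 had at most 0.298, 0.920 and 2.34 RPKM. Klhl33 missed the filter when a WT T3 library was left out and then had no test. In all 3 genes the mutant lay within or below the hypothyroid WT range while WT T3 lay above it.

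A smaller group of hormone-responsive genes was also raised in L-NCOR1ΔID liver. To describe it, 12 genes were taken that were higher than in WT PTU in both WT T3 and L-NCOR1ΔID, by the highest mutant level. For WT T3 this meant an adjusted p under 0.01 and a difference above 1 (8.28% of 13941 genes). For L-NCOR1ΔID it meant an adjusted p under 0.01 and any difference above 0 (0.725% of 13790 genes). The number of genes that met both is not given here. Both comparisons share the WT PTU libraries, and the levels are therefore given side by side. Shmt1, which passes one-carbon units from serine to folate, had 163, 120, 116 and 130 RPKM in WT T3 and 120, 120, 122 and 120 RPKM in L-NCOR1ΔID, beside 48.0 to 62.9 RPKM in WT PTU. The difference of WT T3 from the mutant was 0.12 with a 95% interval of -0.13 to 0.38, so that the mutant reached the T3 level within less than 2-fold.

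Abcg5 and Abcg8, the paired half-transporters that secrete sterols into bile, were both above WT PTU in each mutant library. Abcg5 had 118, 112, 116 and 94.1 RPKM in WT T3, 94.3, 87.4, 103 and 84.2 RPKM in L-NCOR1ΔID, and 34.6 to 47.5 RPKM in WT PTU. WT T3 and L-NCOR1ΔID overlapped (0.25, interval 0.02 to 0.49), and both lay above every WT PTU library. Abcg8 had 88.5 to 104, 56.7 to 82.8 and 28.6 to 39.0 RPKM in these groups, and its difference of 0.47 (0.18 to 0.75, adjusted p = 0.017) did not pass the test although the groups were apart.

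Other genes of this group covered amino acid, sulfate and haem metabolism. Gldc, the glycine cleavage decarboxylase, had 73.2 to 87.9 RPKM in WT T3 and 49.1 to 82.2 RPKM in L-NCOR1ΔID, beside 25.9 to 32.1 in WT PTU (0.38, interval 0.05 to 0.72). The sulfotransferase Sult1d1, the glutathione transferase Gstt3 and the haem oxygenase Hmox2 had mean levels of 157, 138 and 44.3 RPKM in WT T3 and 119, 113 and 30.5 RPKM in L-NCOR1ΔID, and each interval lay within -1 to 1. Their WT PTU means were 75.0, 40.3 and 20.5 RPKM. Each mutant mean thus lay between those of the WT groups, and such an interval does not show that the T3 level was reached. Acacb, the mitochondrial acetyl-CoA carboxylase, had 14.1 to 33.3 RPKM in WT T3 and 18.4 to 35.5 in L-NCOR1ΔID, above the 6.78 to 11.1 RPKM of WT PTU (-0.31, interval -0.93 to 0.30).

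For the rest of the 12 the interval of the difference did not lie within -1 to 1. Papss2, which makes the sulfate donor PAPS, had 320, 226, 172 and 223 RPKM in WT T3, 94.3, 112, 92.7 and 93.4 RPKM in L-NCOR1ΔID and 36.4 to 49.0 RPKM in WT PTU, in 3 ranges that did not overlap. It was higher in WT T3 (1.23 ± 0.172, limma adjusted p = 8.4e-04), so that its level in the mutant lay between those of the WT groups. Cebpb, a transcription factor of the acute phase and of gluconeogenesis, had 46.2 to 125, 24.4 to 37.1 and 10.3 to 15.3 RPKM (0.99, interval 0.32 to 1.66), and the secreted protein gene Fgl1 had 92.2 to 526, 70.6 to 134 and 28.8 to 42.6 RPKM (1.20, interval 0.13 to 2.27). Both intervals reach beyond 2-fold. Cyp3a59 went the other way and was higher in L-NCOR1ΔID than in WT T3, with 33.0 to 54.4 against 14.4 to 17.4 RPKM and 2.13 to 5.76 RPKM in WT PTU (-1.45 ± 0.152, adjusted p = 1.9e-04).

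**Figure D3:**
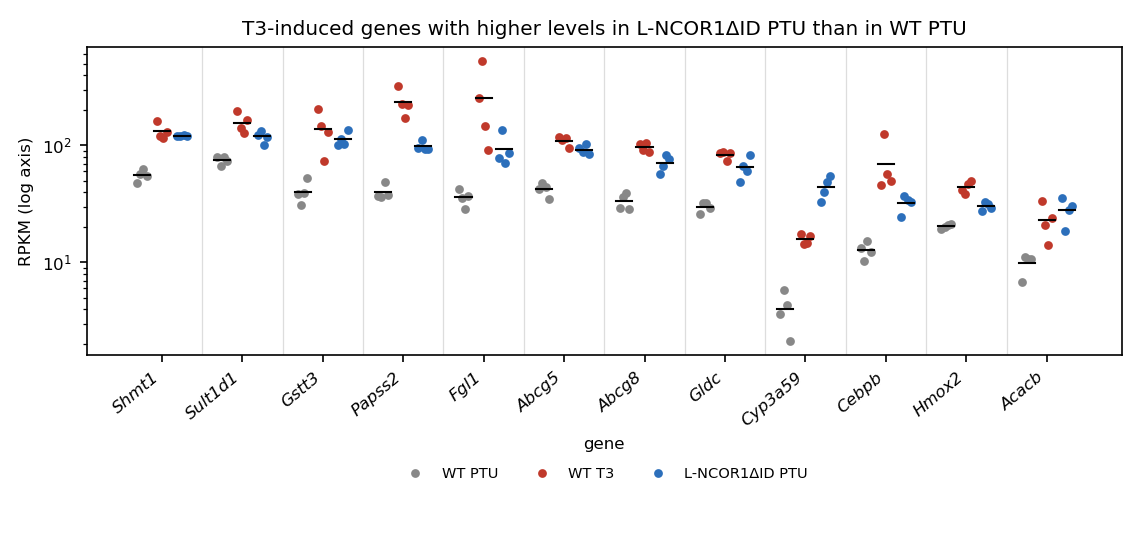
RPKM on a log axis of the 12 genes chosen because both WT T3 and L-NCOR1ΔID exceeded WT PTU, ordered by mean mutant level, with 1 point per library (n = 4 per group) and a black bar at the group mean. Red and blue points intermingle for Shmt1 and Gstt3, lie apart for Papss2, and are reversed for Cyp3a59.

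The receptors themselves differed little. Each of the 5 members of the receptor list (Thra, Thrb, Rxra, Rxrb and Rxrg) had an interval within -1 to 1. Thrb, the main hepatic receptor, had 7.61 to 9.47 RPKM in WT T3 and 6.21 to 10.2 RPKM in L-NCOR1ΔID, and Thra 3.61 to 4.17 and 3.203 to 3.73 RPKM. Of the corepressor complex, Ncor1 (0.31, interval 0.07 to 0.55) and Hdac3 (-0.01, interval -0.18 to 0.17) also had such an interval. Of 14 coactivator and acetyltransferase genes 0 were called by limma, with a median difference of 0.40. Med24 (0.93), Ncoa1 (0.78) and Crebbp (0.62) had differences below 1 with adjusted p of 0.0013, 0.0027 and 0.0021.

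Of 17 genes of thyroid hormone uptake, deiodination and carriage, 5 were higher in L-NCOR1ΔID (Slco1a4, Dio3, Ttr, Serpina7 and Sult1b1), 1 (Dio1) was higher in WT T3, and 8 had intervals within -1 to 1. The median difference of the list was 0.22, and 3.00% of all genes were higher in L-NCOR1ΔID and 5.52% in WT T3. Serpina7, thyroxine-binding globulin, had 0.084, 0.270, 0.318 and 0.666 RPKM in WT T3 and 35.5, 17.8, 11.2 and 10.2 RPKM in L-NCOR1ΔID, beside 14.5 to 54.3 in WT PTU (-5.42 ± 0.485, adjusted p = 8.5e-05). Ttr, the carrier transthyretin, had 1341 to 1843 RPKM in WT T3 against 3320 to 4040 in L-NCOR1ΔID and 3900 to 5350 in WT PTU (-1.34 ± 0.192, adjusted p = 9.3e-04). Both carriers, and the sulfotransferase Sult1b1, were thus low in T3-treated liver alone. Slco1a4, an organic anion transporter that accepts thyroid hormone, had 38.7, 53.5, 38.3 and 40.02 RPKM in L-NCOR1ΔID, above the 11.1 to 21.1 RPKM of WT PTU and the 5.21 to 10.5 RPKM of WT T3. Dio3, which inactivates the hormone, was listed at 0 in the 4 WT T3 libraries and had 0.124 to 0.295 RPKM in the mutant, and it missed the filter when a mutant library was left out.

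Lipogenic genes did not move together. Of 25 genes of fatty acid synthesis and triglyceride assembly, Me1 and Elovl3 were higher in WT T3 and Scd1 in L-NCOR1ΔID. The median difference was -0.16, and the shares of all genes called in these directions were 5.52% and 3.00%. The count higher in L-NCOR1ΔID was 3 after scaling to the median of gene ratios and without WT T3 replicate 1 or L-NCOR1ΔID replicate 2, and 2 without WT T3 replicate 4. Scd1, the stearoyl-CoA desaturase, had 8000, 3745, 6006 and 4669 RPKM in L-NCOR1ΔID, 654, 180, 181 and 720 RPKM in WT T3 and 828 to 1046 RPKM in WT PTU (-3.94 ± 0.509, adjusted p = 5.5e-04). It was the mutant that stood out, and the T3-treated values reached below those of WT PTU. Elovl3, a very long chain elongase, had 76.4 to 112 RPKM in WT T3 and 2.15 to 23.8 RPKM in L-NCOR1ΔID (3.12 ± 0.626, adjusted p = 0.0049), and kept the call in 3 of 8 fits with a library left out. Fasn (-0.55, interval -1.46 to 0.36) and Srebf1 (-1.22, interval -1.99 to -0.44, adjusted p = 0.021), the lipogenic transcription factor, did not pass.

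Cholesterol synthesis genes were called only toward WT T3, where 5.52% of all genes were called, and 3.00% toward L-NCOR1ΔID. Of 24 genes, 8 (Mvk, Mvd, Sqle, Cyp51, Msmo1, Nsdhl, Hsd17b7 and Srebf2) were higher in WT T3 and 0 in L-NCOR1ΔID, with a median of 0.59. Hsd17b7 had 62.7, 44.8, 50.7 and 53.1 RPKM in WT T3 and 13.5, 14.6, 12.3 and 20.05 RPKM in L-NCOR1ΔID (1.81 ± 0.160, adjusted p = 8.0e-05). Cyp51, the lanosterol demethylase, had 68.5 to 109 against 24.2 to 45.0 RPKM, and Srebf2, the transcription factor of the pathway, had 23.5 to 25.3 against 9.19 to 13.7 RPKM (1.09 ± 0.123, adjusted p = 2.8e-04). The count of 8 became 3 after scaling to the median of gene ratios. It was 3 without WT T3 replicate 3 or 4 or L-NCOR1ΔID replicate 1 or 3, 4 without WT T3 replicate 1 and 5 without L-NCOR1ΔID replicate 2.

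In bile acid and sterol secretion, Cyp7a1, Cyp7b1 and Abcb4 of 24 genes were higher in WT T3, against 5.52% of all genes. Nr0b2 was higher in L-NCOR1ΔID, against 3.00% of all genes, and 17 intervals lay within -1 to 1. Cyp7b1, the oxysterol hydroxylase of the alternative pathway, had 211 to 259 RPKM in WT T3 and 24.7 to 64.4 RPKM in L-NCOR1ΔID, beside 41.0 to 116 in WT PTU (2.61 ± 0.263, adjusted p = 1.6e-04). Abcb4, which exports phospholipid into bile, had 94.1 to 127 against 30.1 to 41.3 RPKM, the latter near WT PTU (30.6 to 50.3 RPKM). It thus differed between the groups where the sterol transporters Abcg5 and Abcg8 did not pass. Cyp7a1, the rate-limiting enzyme of bile acid synthesis, had 117, 16.3, 58.4 and 83.4 RPKM in WT T3 and 7.30, 17.97, 6.55 and 2.70 RPKM in L-NCOR1ΔID. The ranges overlapped, and its call (2.97 ± 0.675, adjusted p = 0.0085) held in 2 of 8 fits with a library left out. Nr0b2, the repressor SHP that restrains Cyp7a1, had 9.09 to 19.7 against 26.6 to 48.7 RPKM (-1.43 ± 0.259, adjusted p = 0.0030), and its call was lost without L-NCOR1ΔID replicate 3.

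In energy metabolism the share of members within 2-fold varied by list, beside 69.2% of all genes. Of 53 oxidative phosphorylation genes 49 had intervals within -1 to 1 and 1 (Cycs) was higher in WT T3. Such intervals were found for 23 of 29 fatty acid oxidation and ketogenesis genes. They were found for 13 of 27 genes of gluconeogenesis, glycolysis and pyruvate dehydrogenase, and for 10 of 16 mitochondrial biogenesis and uncoupling genes. Fgf21, a hepatic hormone of the fasting response, had 8.80, 75.8, 122 and 15.2 RPKM in WT T3, 0.364, 0.194, 0.173 and 0.136 RPKM in L-NCOR1ΔID and 1.83 to 20.6 RPKM in WT PTU (6.77 ± 0.758, adjusted p = 2.7e-04). The mutant was below each hypothyroid WT library as well. Ehhadh, the peroxisomal bifunctional enzyme, had 395, 246, 250 and 216 RPKM in L-NCOR1ΔID, against 62.7 to 106 in WT T3 and 78.8 to 93.4 in WT PTU (-1.75 ± 0.216, adjusted p = 4.4e-04). At the entry of pyruvate into mitochondria, Pdhb, Pdp1 and Pdp2 were higher in WT T3 and the inhibitory kinase Pdk1 in L-NCOR1ΔID. Pdhb, a subunit of the dehydrogenase, had 119 to 175 against 38.7 to 57.3 RPKM, and Pdk1 had 8.31 to 14.7 against 27.1 to 49.2 RPKM. Fbp1, a gluconeogenic enzyme gene, was the other member of the 27 called higher in L-NCOR1ΔID, a call that held in 1 of 8 fits with a library left out. Of 16 mitochondrial biogenesis and uncoupling genes, Pprc1, Esrrg and Gpd2 were higher in WT T3 and 0 in L-NCOR1ΔID by limma. Pprc1, a coactivator of the PGC-1 family, had 5.52 to 7.98 against 2.48 to 3.71 RPKM (1.15 ± 0.153, adjusted p = 6.5e-04).

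Stat5a and Stat5b, the transcription factors that carry the growth hormone signal, were the genes called among 21 of that axis. Stat5a had 16.1, 16.7, 14.7 and 15.7 RPKM in WT T3 and 2.62, 1.76, 2.75 and 1.97 RPKM in L-NCOR1ΔID, with 1.11 to 2.13 in WT PTU (2.76 ± 0.145, adjusted p = 6.8e-06). Stat5b had 24.0 to 30.5 against 9.64 to 11.5 RPKM (1.38 ± 0.10, adjusted p = 3.2e-05), and Igf1 had a difference of 0.06 (interval -0.26 to 0.37). Both sexually dimorphic lists contained genes called in either direction, 3 and 8 of 26 male-biased and 10 and 6 of 29 female-biased genes being higher in WT T3 and in L-NCOR1ΔID. The shares of all genes were 5.52% and 3.00%. In these male livers Cyp3a16 and Cyp3a44 had 22.3 to 105 and 15.7 to 93.8 RPKM in WT T3, at most 0.656 RPKM in L-NCOR1ΔID and at most 0.247 RPKM in WT PTU. The count of 10 became 6 without WT T3 replicate 2 or 3, and the male-biased count of 3 became 6 without L-NCOR1ΔID replicate 4.

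**Figure D4:**
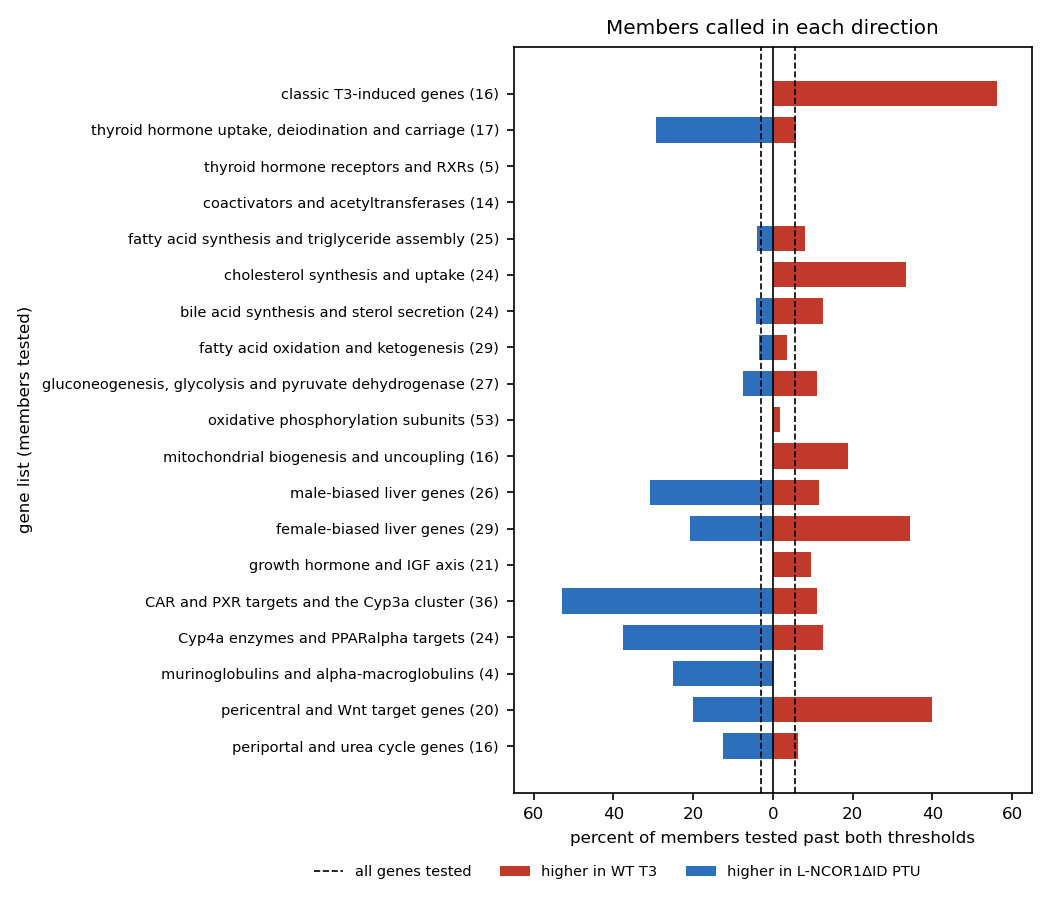
Percent of the members tested of each gene list shown that were higher in WT T3 (red, to the right) or in L-NCOR1ΔID (blue, to the left), with the number tested in parentheses and dashed lines at the 5.52% and 3.00% of all genes. Classic T3-induced and cholesterol genes extend to the right, and CAR/PXR targets and Cyp4a enzymes to the left.

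Drug-metabolizing genes gave the highest count of members higher in L-NCOR1ΔID among the lists examined. CAR and PXR are nuclear receptors that sense drugs and bile acids, and 19 of 36 of their targets and Cyp3a genes were higher in the mutant and 4 in WT T3, with a median of -1.40. Beside this, 3.00% of all genes were higher in the mutant and 5.52% in WT T3. With single libraries left out, 17 to 21 members were higher in the mutant. Cyp3a11, the main PXR-induced enzyme, had 2671, 2492, 2552 and 2482 RPKM in L-NCOR1ΔID, 21.7, 47.8, 115 and 82.8 RPKM in WT T3 and 108 to 301 RPKM in WT PTU (-5.50 ± 0.436, adjusted p = 4.8e-05). The mutant values lay far above both WT groups. Gstm3 had 873 to 1197 RPKM in L-NCOR1ΔID, 65.7 to 184 in WT T3 and 262 to 327 in WT PTU, and Cyp2c55 had 14.6 to 27.1, 0.261 to 1.18 and 0.691 to 4.70 RPKM.

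For other members of the block it was the T3-treated liver that stood apart. Abcc3, which exports conjugates into blood, had 4.46, 2.79, 4.73 and 5.75 RPKM in WT T3, 126, 144, 126 and 121 RPKM in L-NCOR1ΔID and 114 to 162 RPKM in WT PTU (-4.88 ± 0.190, adjusted p = 1.8e-06). Cyp2c54 likewise had 15.1 to 23.7, 135 to 229 and 180 to 219 RPKM. The receptors had smaller differences, with Nr1i3 (CAR) at 37.2 to 56.5 RPKM in WT T3 and 73.5 to 87.8 RPKM in L-NCOR1ΔID (-0.90 ± 0.134) and Nr1i2 (PXR) at 25.2 to 30.7 and 32.8 to 49.0 RPKM (-0.61 ± 0.135). Genes of the Cyp3a, Cyp2c, Gst and Mup families have near-identical copies, among which reads could be divided, so single members are uncertain. Of 24 Cyp4a enzymes and PPARα targets, 9 were higher in L-NCOR1ΔID and 3 (Cyp4a31, Plin2 and Fgf21) in WT T3, the latter count being 5 without L-NCOR1ΔID replicate 1. The count of 9 was 6 without WT T3 replicate 1 or 4 and 7 without WT T3 replicate 2 or 3. It was 7 without L-NCOR1ΔID replicate 2 or 3 and 8 without L-NCOR1ΔID replicate 1. Acot1, a cytosolic acyl-CoA thioesterase, had 23.0, 7.98, 8.81 and 5.96 RPKM in the mutant, 0.332 to 1.18 in WT T3 and 6.53 to 8.52 in WT PTU (-3.71 ± 0.438, adjusted p = 3.5e-04), while Cyp4a10, a fatty acid hydroxylase, kept its call (-1.95 ± 0.384) in 4 of 8 fits with a library left out.

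The largest single differences repeated the 2 patterns. Among genes higher in L-NCOR1ΔID, Cyp4a12b, Cyp2c23 and Hsd17b6, which metabolize fatty acids and steroids, had mean levels of 53.2, 253 and 105 RPKM in the mutant, 54.9, 315 and 181 RPKM in WT PTU and only 0.470, 4.57 and 2.02 RPKM in WT T3. Inmt, an amine methyltransferase, had 707.9, 579.4, 906.1 and 708.9 RPKM in L-NCOR1ΔID against 15.8, 3.74, 5.42 and 26.4 RPKM in WT T3 (-6.20 ± 0.541, adjusted p = 7.6e-05), and Hamp2, a hepcidin gene, had 208 to 419.8 against 3.25 to 7.71 RPKM. These 5 genes were low after T3 and not in either hypothyroid group. Gpx6, Mug2 and Gm4956 were high in the mutant alone. Mug2, a murinoglobulin protease inhibitor, had 168, 256, 235 and 224 RPKM in L-NCOR1ΔID, 6.70, 19.1, 16.4 and 7.16 RPKM in WT T3 and 6.82 to 12.2 RPKM in WT PTU (-4.29 ± 0.339, adjusted p = 4.8e-05). Gpx6, a glutathione peroxidase gene, had 3.67 to 21.4 RPKM in the mutant and at most 0.183 and 0.706 RPKM in WT T3 and WT PTU.

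Among genes higher in WT T3, Mup9, a major urinary protein gene, had 3240, 2987, 5373 and 5637 RPKM against 0.674, 1.53, 1.90 and 25.9 RPKM in L-NCOR1ΔID (10.51 ± 0.918, adjusted p = 7.6e-05), and 3.65 to 736 RPKM in WT PTU. Ces4a, a carboxylesterase gene, had 61.2 to 117 RPKM in WT T3 and 0.040 to 0.606 RPKM in the mutant, with 0.198 to 8.07 RPKM in WT PTU. For both, the mutant means were below those of hypothyroid WT. Serpina3c had 164 to 249.9 RPKM in WT T3 and 103 to 223 RPKM in WT PTU, and 0.160, 0.358, 45.8 and 0.962 RPKM in L-NCOR1ΔID, so that there the mutant was the group apart. Its call held in 1 of 8 fits with a library left out.

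**Figure D5:**
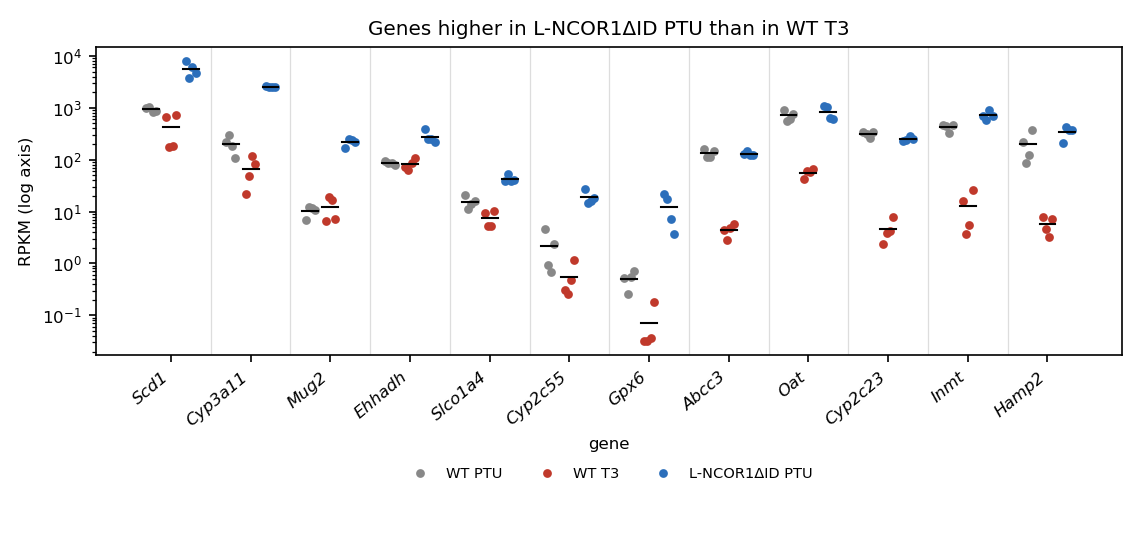
RPKM on a log axis of 12 genes higher in L-NCOR1ΔID than in WT T3, with 1 point per library (n = 4 per group) and a black bar at the group mean. For Scd1 to Gpx6 the mutant lies above both WT groups, and for Abcc3 to Hamp2 WT T3 lies below both hypothyroid groups.

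Zonation genes were called both ways, beside 5.52% of all genes higher in WT T3 and 3.00% in L-NCOR1ΔID. Of 20 pericentral and Wnt target genes 8 were higher in WT T3 (Lgr5, Tbx3, Nkd1, Rhbg, Lect2, Slc13a3, Cyp7a1 and Gulo) and 4 in L-NCOR1ΔID (Cyp2e1, Cyp1a2, Oat and Slc1a2), of which Cyp1a2 kept its call in 2 of 8 fits with a library left out. Oat, ornithine aminotransferase, had 42.3 to 64.9 RPKM in WT T3, 608 to 1094 in L-NCOR1ΔID and 569 to 904 in WT PTU (-3.86 ± 0.230, adjusted p = 1.2e-05), and Cyp2e1 had 795 to 1082, 3313 to 4168 and 4641 to 5950 RPKM. Glul, the glutamine synthetase of the last pericentral cells, had 248 to 432 and 149 to 213 RPKM in WT T3 and L-NCOR1ΔID and did not pass the fold threshold (0.85, interval 0.39 to 1.31). The count of 8 became 5 after scaling to the median of gene ratios or without L-NCOR1ΔID replicate 1. Of 16 periportal and urea cycle genes Cdh1 was higher in WT T3, and Hal and Hsd17b13 in L-NCOR1ΔID. The latter count was 1 without WT T3 replicate 2, 3 or 4 or L-NCOR1ΔID replicate 2 or 3, and Hal kept its call in 2 of 8 such fits.

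In bulk liver fewer cells of a type and less RNA per cell cannot be told apart, and several Kupffer cell and macrophage markers differed between the groups. Of 13 Kupffer cell and macrophage markers tested, 9 were higher in WT T3, against 5.52% of all genes, with a median of 1.24. The summed level of the list was 367 to 534 RPKM in WT T3, 120 to 309 in L-NCOR1ΔID and 110 to 152 in WT PTU. Clec4f, specific to Kupffer cells, had 38.2 to 62.4, 13.8 to 16.7 and 11.7 to 16.6 RPKM in these groups. The count was 4 after scaling to the median of gene ratios and 3 without WT T3 replicate 3 or L-NCOR1ΔID replicate 3. It was 4 without WT T3 replicate 1 or 4 and 5 without L-NCOR1ΔID replicate 1 or 4. Without WT T3 replicate 2 the count was 7, and without L-NCOR1ΔID replicate 2 it was 11. No marker of this list was listed at 0 throughout. Of 14 hepatocyte markers 1 (Ttr) was called, and of the stellate, endothelial and cholangiocyte markers (14, 12 and 6 tested) 0 were called by limma. The part of cell composition in the differences above was not tested.

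Counts in the lists of clock and immune genes are to be read against the 5.52% and 3.00% of all genes, and several changed with a library left out. Per1, Dbp, Ciart and Bhlhe41 of 19 clock genes were higher in L-NCOR1ΔID, a count of 4 that was 0 to 3 with a library left out and 0 without WT T3 replicate 3 or L-NCOR1ΔID replicate 3. It was 1 without WT T3 replicate 1 or L-NCOR1ΔID replicate 2 and 2 without WT T3 replicate 2 or 4 or L-NCOR1ΔID replicate 4. Dbp, a clock output gene, had 10.5 to 32.0 RPKM in WT T3 and 41.3 to 104 in L-NCOR1ΔID. Of 21 acute phase genes Saa1, Saa4, Itih4 and Apcs were higher in WT T3, 1 of them after scaling, and 2 genes without WT T3 replicate 3 or L-NCOR1ΔID replicate 1 or 3. Ccne1 and Rrm2 of 27 cell cycle genes, Cd3e and S100a9 of 13 blood cell markers, Gbp3 of 20 interferon-stimulated genes and Egr1 of 22 stress genes were higher in WT T3, and Alas2 (blood), Irf7 and Oasl1 (interferon) and Nqo1 (stress) in L-NCOR1ΔID. The stress count of 1 was 0 without WT T3 replicate 3 or L-NCOR1ΔID replicate 3, 4 without WT T3 replicate 1, 3 without WT T3 replicate 4 and 2 without L-NCOR1ΔID replicate 1, 2 or 4. The cell cycle count of 2 was 5 without L-NCOR1ΔID replicate 1, and the blood cell count of 2 was 1 without any single library other than WT T3 replicate 4. The part of these genes in the other differences was not tested.

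Around the mutated locus, 105 genes with a TSS within 5 Mb of Ncor1 on chromosome 11 were tested. Of these, 7 (6.67%) were higher in WT T3, near the 5.52% of all genes. In L-NCOR1ΔID 1 gene was higher (Gas7, 0.952%), below the 3.00% of all genes. 2610507I01Rik had 5.60, 4.06, 6.34 and 5.47 RPKM in WT T3 and 6.21 to 7.41 RPKM in WT PTU, but 0.261, 0.325, 0.885 and 0.372 RPKM in L-NCOR1ΔID (3.39 ± 0.30, adjusted p = 8.2e-05). Guk1, guanylate kinase, had 26.0 to 31.7, 19.8 to 24.5 and 10.5 to 14.3 RPKM in these groups. Both were low in the mutant, whereas the autophagy kinase gene Ulk2 was high after T3 alone, with 34.6 to 41.4 RPKM against 7.96 to 10.2 in the mutant and 9.72 to 14.9 in WT PTU. Whether sequence linked to the Ncor1 allele differs between the mice was not tested.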

How the data were processed

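Poly(A) RNA of mouse liver was sequenced, and alignment by the authors used STAR and the mm9 build, with RefSeq transcripts quantified in HOMER. The deposited values are RPKM per transcript and library, and the authors computed their own differential expression with DESeq2 from counts not used here. The deposited list of acetylated regions holds coordinates only. Of 31370 transcripts, 1 without a gene name (at most 0.000785% of summed RPKM) was left out, and the first listed transcript stood for each of 23813 genes, 4272 of which have more than 1. The table has 0 unused columns. Positions came from GENCODE M1 (mm9) for 21785 genes, 19945 by symbol and 1840 by synonym.

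limma 3.58.1 (R 4.3.3) was fitted to log2(RPKM + 0.1) of the 8 libraries with an intensity trend of the variance, and p-values were adjusted by Benjamini-Hochberg over 14017 genes. As RPKM hold no read counts, no count test was run. Errors are SE, and p-values measure the spread between these samples, which may in part be technical. Simulated data of 13886 genes had independent random noise, and the changed genes were drawn only from those with a positive mean log2(RPKM + 0.1). Among these, 91 of 100 genes changed by 2 and 98 of 100 changed by 3 on the log2 scale were called, with 3 unchanged genes called. Recovery of changes in lower genes was not examined. TRBS positions and types are the study's. DR4 matches were scored on mm9 as matching bases out of 12 on both strands. Python 3.11.15, numpy 2.4.6, pandas 2.3.3, scipy 1.17.1 and matplotlib 3.10.9 were used.

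The comparison, gene lists and tests were chosen with earlier results of these data known. Named genes are those of the receptor and corepressor lists, genes the study names, the 12 largest differences per direction with at least 1 RPKM and no overlap, up to 4 members per list and direction and 4 genes per TRBS type and direction by adjusted p, list-defining members, the 12 genes raised in both WT T3 and L-NCOR1ΔID, and those near Ncor1. Genes of the check lists were named to describe them. A few genes of these rules are not reported here. Groups came from the sample titles. Alternatives were a pseudocount of 1 or 0.01, no filter, only genes averaging 1 RPKM or more, a fit of all 12 libraries, a replicate block, a constant prior variance, median gene ratio scaling, a threshold of 0.05, no fold threshold, the transcript with the highest mean, 90% intervals, TSS distances of 50 and 200 kb and each library left out.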

Additional observations from a re-analysis of the deposited data

Results flagged for a closer look

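Among the genes whose libraries were described, each group of 4 was examined for 1 library far from the others, by the gap to its nearest neighbour as a share of the range on the log2(RPKM + 0.1) scale. A share past Dixon's 95% critical value was reached in 8 of 122 groups, where chance gives about 1 in 20. In WT T3 these were Gpd2 in replicate 4 (low, share 0.894), Gldc in replicate 3 (low, 0.849) and Gpx6 in replicate 4 (high, 0.951, at 0.183 RPKM). In L-NCOR1ΔID, replicate 1 was high for Pdk1 (0.857) and Cyp2e1 (0.958), and replicate 2 was low for Me1 (0.842) and high for Slco1a4 (0.870) and Papss2 (0.906). The called genes among these, namely Gpd2, Gpx6, Pdk1, Cyp2e1, Me1, Slco1a4 and Papss2, were called with each of the 8 libraries left out.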

How the results depend on the processing

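The 774 genes higher in WT T3 became 480 with a pseudocount of 1 and 2176 without a fold threshold, and the 421 higher in L-NCOR1ΔID became 799 without it. Leaving out each library gave 568 to 761 and 302 to 422. The share of genes near type 1A sites higher in WT T3 (23.5%) moved to 19.1% with a pseudocount of 1, 19.6% without a filter, 18.9% with scaling by the median of gene ratios, 39.0% without a fold threshold, and 34.9% and 14.9% at 50 and 200 kb. That near type 1B sites (19.1%) was 16.4%, 15.9%, 16.7%, 34.0%, 30.0% and 14.8% in the same settings. The number of intervals within -1 to 1 ranged from 8120 with only genes averaging 1 RPKM or more to 13349 without a filter, settings that test different numbers of genes. With the same genes it was 12021 with a pseudocount of 1 and 8841 with 0.01. Same-numbered mice of the 2 groups did not deviate together (correlations of -0.086 to 0.011). These correlations cannot show whether such mice were handled together, and the sample titles give replicate numbers only. With the replicate block 620 and 337 genes were called, 9398 intervals lay within -1 to 1 and the shares near type 1A and 1B sites were 20.7% and 17.1%. Of 2385 values of 133 named genes under an alternative, 0 reversed, 88 lost and 2 gained the call. Of 104 called genes, 88 kept the call with each library left out. Genes near 0.1 RPKM rest on few reads, so that small differences among them were not detectable.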
